A study of Mus musculus with 5 samples.

Results

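The 9 genes described here encode proteins of megakaryocytes and of the platelets that these cells release: Pf4, Ppbp, Gp9, Gp1ba, Gp1bb, Gp6, Itga2b, Itgb3 and Treml1. They were taken by gene symbol from a table of read counts, in which all 9 of them were found among 34970 gene symbols. The pattern of Pf4 was known when the genes were chosen, so its levels are given as a description.

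Megakaryocytes are large cells of the bone marrow that shed platelets into the blood, and platelets carry RNA from the parent cell although they lack a nucleus. Platelets store the chemokines encoded by Pf4 and Ppbp in alpha granules. They bind von Willebrand factor through the glycoprotein Ib-IX-V complex and collagen through glycoprotein VI, and they aggregate through the integrin of the Itga2b and Itgb3 products, the fibrinogen receptor. In mice, Pf4 is also known to be expressed by some macrophages, and the integrin beta-3 chain also pairs with the alpha-V chain in cells outside the megakaryocyte lineage.

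The study sequenced polyA RNA of 5 mouse samples, 1 per group, all labelled wild type. The MCC library carries the label myeloid-like cell complex, and by its title the study dealt with macrophages obtained from fibroblasts by direct reprogramming. PB is labelled plasma blood cells, while the design text speaks of CD45-positive cells (CD45 is a leukocyte surface protein). These differ, and the library held high haemoglobin counts, so how far PB was sorted for leukocytes is not settled. BM is a library of bone marrow. iPSC stands for induced pluripotent stem cells and MEF for mouse embryonic fibroblasts. The making of the MCC cells and the age and strain of the animals were not given in the labels used here.

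Total counts ranged from 30078366 in PB to 47557598 in MCC. The unit CPM is a gene's reads relative to its library's size, with sizes adjusted by trimmed-mean (TMM) scaling, each level with a 95% interval where it is given in brackets. Each group had 1 library and therefore no replicate error, so no p-value is given, and intervals cover counting error only. A gene was called higher or lower where the CPM ratio of 2 libraries was at least 4-fold and the higher library had at least 5 CPM. Counts under 3 reads were set to 3 for the call, a floor of 0.10 CPM in PB and 0.0574 to 0.0736 CPM in the other 4 libraries. The PB library carries a code far from those of the others, and an effect of batch cannot be told apart from PB itself.

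Of 12 macrophage markers, 12 were at 5 CPM or more in MCC and 12 in BM, against 7 in PB and 1 each in iPSC and MEF. All 8 fibroblast markers were at 5 CPM or more in MCC and in MEF, so the MCC library held transcripts of both kinds. The 9 erythroid markers summed to 94586 CPM in PB and 13948 CPM in BM, and to 18.3 CPM in MCC. PB and BM are mixtures of cell types. In such bulk libraries fewer cells of a type and less RNA per cell cannot be told apart.

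Promoters of 3 of the genes are shown because Pf4 and Ppbp are neighbours with opposite orders of level in MCC and PB, and Itga2b was detected in all 5 libraries. The sequences are RefSeq's on GRCm38.p6, 250 bases ending at the base before the RefSeq transcription start, written 5′ to 3′ on the gene's strand. In GENCODE M21 the Itga2b gene has its 5′ end at 102470122, so most of its window, marked letters included, lies inside that gene. Capitals mark the letters searched, AGGAAG for ETS factors and AGATAA or TGATAA for GATA factors, on either strand. No 2 matches overlapped in these windows.
Pf4 (chr5:90772185-90772434, plus strand): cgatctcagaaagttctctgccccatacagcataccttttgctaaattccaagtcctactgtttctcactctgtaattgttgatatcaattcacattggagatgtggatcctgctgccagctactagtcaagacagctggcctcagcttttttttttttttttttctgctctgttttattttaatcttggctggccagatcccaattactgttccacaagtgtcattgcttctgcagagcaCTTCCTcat
Ppbp (chr5:90768268-90768517, plus strand): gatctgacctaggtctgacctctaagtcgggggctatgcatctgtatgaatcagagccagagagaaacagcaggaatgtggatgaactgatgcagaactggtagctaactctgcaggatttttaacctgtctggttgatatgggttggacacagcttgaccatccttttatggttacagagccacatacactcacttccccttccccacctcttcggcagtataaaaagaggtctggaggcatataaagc
Itga2b (chr11:102469884-102470133, minus strand): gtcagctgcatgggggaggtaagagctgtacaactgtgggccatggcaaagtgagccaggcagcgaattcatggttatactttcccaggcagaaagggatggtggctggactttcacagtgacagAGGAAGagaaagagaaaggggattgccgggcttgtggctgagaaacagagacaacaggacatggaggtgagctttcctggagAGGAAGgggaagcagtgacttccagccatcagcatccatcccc

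Of the 9 genes, 8 were matched in the promoter table, all but Itgb3. AGGAAG or its reverse complement lay in 4 of these 8 windows, those of Pf4, Gp9, Gp1ba and Itga2b, against 29.5% of 32851 promoters. In Pf4 it lay on the opposite strand, starting 9 bases before the start site, and in both Gp9 and Gp1ba at 16 bases before it. A GATA motif lay in 2 of the 8 windows, those of Gp6 and Gp1ba, against 16.6% of all promoters, and Gp1ba alone held both kinds. A match describes these letters and is not a binding site.

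Pf4 was high in MCC, and 7 of the other genes were lower there than in PB and BM. Platelet factor 4, the Pf4 product, is a CXC chemokine that binds heparin. Pf4 lies on mm10 chromosome 5, 90772435 to 90773383, plus strand. It was at 248 CPM (243 to 253) in MCC, 21.4 CPM (19.7 to 23.1) in PB and 16.4 CPM (15.2 to 17.7) in BM. In iPSC it had 1 read, 0.0191 CPM, and in MEF 2 reads, 0.0462 CPM. MCC thus stood above the blood and marrow libraries, and the stem cell and fibroblast libraries held traces. The CPM ratio was 11.6-fold (10.7 to 12.6) in MCC over PB and 15.1-fold (14.0 to 16.3) in MCC over BM. Counted per kilobase of exon, Pf4 was at 344 CPM per kb in MCC, place 185 among 24112 genes with reads, and at place 1584 in PB and 2441 in BM.

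Ppbp encodes pro-platelet basic protein, from which platelets make further CXC chemokines that attract neutrophils, and it is the next gene to Pf4, at 90768518 to 90770063 on the same strand. It was at 1.57 CPM (1.22 to 2.0) in MCC, 51.9 CPM (49.3 to 54.5) in PB, 22.4 CPM (20.9 to 23.9) in BM, 0.0957 CPM (5 reads) in iPSC and 2.4 CPM (1.96 to 2.91) in MEF. The order of the libraries was unlike that of Pf4, with MCC below PB and BM and close to MEF. Ppbp was 33.0-fold (25.8 to 42.7) lower in MCC than in PB and 14.2-fold (11.1 to 18.5) lower than in BM.

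Within a library the ratio of these neighbours does not depend on the scaling. There were 158 Pf4 reads (124 to 203) per Ppbp read in MCC, 0.412 (0.375 to 0.452) in PB and 0.734 (0.664 to 0.812) in BM. In MEF the ratio was 0.0192 (0.00230 to 0.0712), from 2 and 104 reads, and iPSC had 1 and 5 reads. Cxcl3, the next protein-coding gene on the other side of Pf4, was at 0.185 CPM in MCC, 9.88 CPM in PB and 0.417 CPM in BM. Both neighbours of Pf4 were thus below 2 CPM in MCC.

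**Figure D1:**
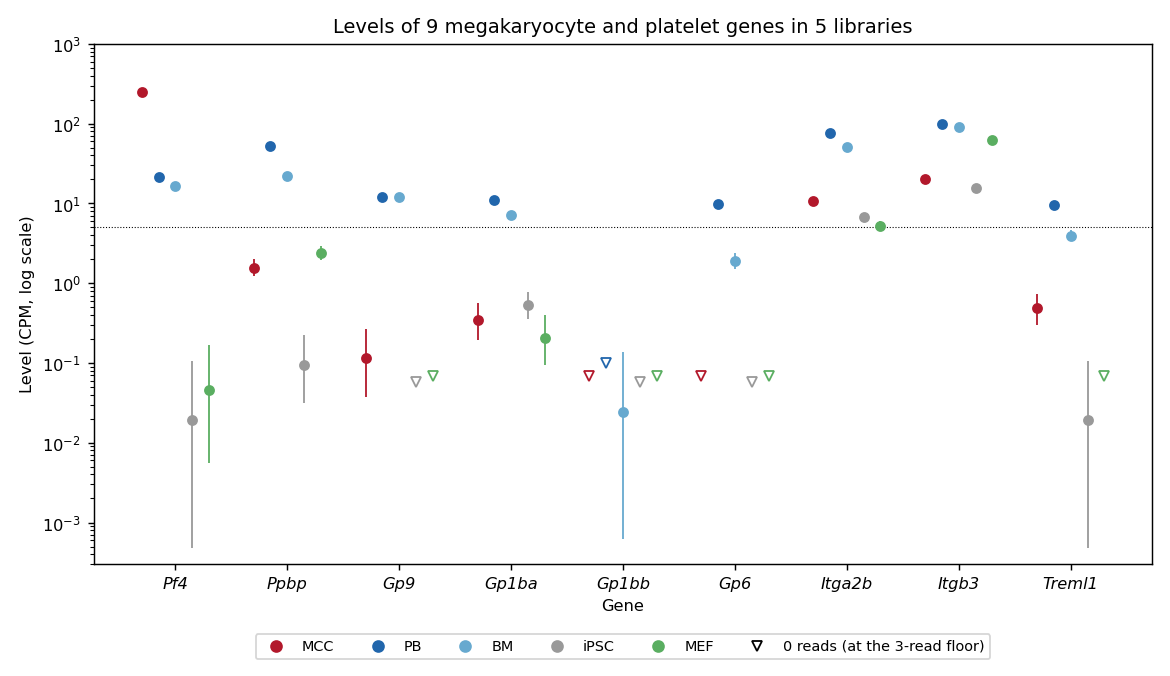
Level of each of the 9 genes in CPM on a log axis, 1 point per library with its 95% counting interval; open triangles mark 0 reads, drawn at the level of 3 reads, and the dotted line is 5 CPM. Pf4 is the gene with MCC on top, at 248 CPM.

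The genes of the von Willebrand factor receptor whose level could be read were near 0 in MCC. Gp1ba, on chromosome 11 at 70639122 to 70642036, encodes the chain that binds von Willebrand factor. Gp1ba was at 0.347 CPM (0.194 to 0.573) in MCC, 11.0 CPM (9.86 to 12.3) in PB, 7.17 CPM (6.37 to 8.04) in BM, 0.536 CPM (0.356 to 0.774) in iPSC and 0.208 CPM (0.0952 to 0.395) in MEF. MCC and the 2 libraries of cultured cells without a blood label overlapped in their counting intervals, and PB and BM stood well above them. The level was 31.7-fold (19.0 to 57.3) lower in MCC than in PB and 20.6-fold (12.3 to 37.4) lower than in BM.

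Gp9, on chromosome 6 at 87778072 to 87779768, encodes the small subunit glycoprotein IX, without which the complex reaches the surface poorly. It was at 0.116 CPM (5 reads) in MCC, 11.9 CPM (10.6 to 13.2) in PB, 11.9 CPM (10.9 to 13) in BM, and 0 reads in iPSC and MEF. PB and BM did not differ beyond counting error, with a ratio of 0.995 (0.865 to 1.14) for PB over BM. Gp9 was 102-fold (43.5 to 317) lower in MCC than in PB and 103-fold (43.8 to 318) lower than in BM. Gp5, the remaining gene of the complex and not among the 9, was at 0.301 CPM in MCC, 11.6 CPM in PB and 7.02 CPM in BM, and 38.5-fold lower in MCC than in PB.

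Gp1bb, which encodes the beta chain that is joined to the Gp1ba product, could not be read from these counts. It had 1 read in BM and 0 reads in the other 4 libraries, PB included, where Gp1ba had 329 reads and Gp9 354. On chromosome 16, 92.9% of its exon bases also belong to exons of Septin5 or a predicted gene on the same strand. Septin5, named for this overlap after its values were seen, had 417 reads in MCC, 16 in PB, 1014 in BM, 187 in iPSC and 775 in MEF. The rule for reads that lie over 2 genes was not stated, so the level of Gp1bb is uncertain in all 5 libraries. Tbx1, a developmental transcription factor gene beside it, had 8.91 CPM in MCC and 0 reads in PB and BM.

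Gp6 encodes the collagen receptor glycoprotein VI and lies on chromosome 7, 4363965 to 4397744, minus strand. It was at 9.91 CPM (8.81 to 11.1) in PB and 1.91 CPM (1.51 to 2.39) in BM, and had 0 reads in MCC, iPSC and MEF. It was at least 143-fold lower in MCC than in PB and at least 27.6-fold lower than in BM, against the floor of 3 reads. Its signalling partner Fcer1g, the Fc receptor gamma chain that macrophages use too, was at 447 CPM in MCC, 216 CPM in PB and 263 CPM in BM. MCC thus had reads of the partner and none of the receptor.

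Itga2b and Itgb3 were the genes other than Pf4 that stayed above 5 CPM in MCC, and they did so in every library. Itga2b, on chromosome 11 at 102453297 to 102470122, minus strand, encodes the alpha-IIb chain (CD41), which also marks early blood progenitors. It was at 10.7 CPM (9.76 to 11.7) in MCC, 76.5 CPM (73.4 to 79.7) in PB, 51.2 CPM (49.0 to 53.5) in BM, 6.75 CPM (6.07 to 7.50) in iPSC and 5.25 CPM (4.59 to 5.98) in MEF. MCC was closer to the stem cells and fibroblasts than to PB or BM. The ratio was 2.04-fold (1.74 to 2.40) in MCC over MEF, short of the 4-fold rule, and the level was 4.78-fold (4.32 to 5.30) lower in MCC than in BM.

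Itgb3, on chromosome 11 at 104608000 to 104670476, encodes the beta-3 chain. It was at 20.4 CPM (19.1 to 21.8) in MCC, 100.3 CPM (96.7 to 104) in PB, 91.6 CPM (88.7 to 94.6) in BM, 15.7 CPM (14.6 to 16.8) in iPSC and 62.2 CPM (59.9 to 64.6) in MEF. MEF was the highest library without a blood label, and MCC was 3.05-fold (2.83 to 3.29) lower than MEF, within the 4-fold rule. MCC was 4.49-fold (4.17 to 4.84) lower than BM and 4.91-fold (4.56 to 5.30) lower than PB. The iPSC level was 3.97-fold (3.67 to 4.30) lower than that of MEF, just short of the rule.

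Per kilobase of exon, there were 0.568 Itga2b (0.506 to 0.636) for each Itgb3 in MCC, 0.826 (0.782 to 0.872) in PB, 0.605 (0.573 to 0.638) in BM and 0.466 (0.410 to 0.528) in iPSC. In MEF the ratio was 0.0912 (0.0793 to 0.105), apart from the other 4 libraries. These ratios depend on the length used. Itga2b has 5454 exon bases and a longest transcript of 3437, and Itgb3 has 5901 and 5784. On the longest transcripts every ratio would be higher, so which of the 2 genes was the higher in PB is not settled. Itgav, which encodes the other alpha partner of the beta-3 chain, was at 77.7 CPM in MCC, 55.2 CPM in PB, 26.8 CPM in BM, 145 CPM in iPSC and 282 CPM in MEF. Per kilobase, Itgb3 was 0.478 of Itgav in MCC, 3.31 in PB, 6.24 in BM, 0.197 in iPSC and 0.401 in MEF. In MCC, iPSC and MEF the alpha-V gene was thus the higher of this pair, and in PB and BM the beta-3 gene was. Osteoclasts also use the beta-3 chain. Of 7 osteoclast markers, 3 were at 5 CPM or more in MCC, 2 in PB, 3 in BM, 1 in iPSC and 2 in MEF. The number with 0 reads was 1 in MCC, 1 in PB, 0 in BM, 1 in iPSC and 2 in MEF.

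Treml1 encodes a receptor of platelet alpha granules that appears on the surface of activated platelets. It lies on chromosome 17, 48359916 to 48367176, and was at 0.486 CPM (0.301 to 0.743) in MCC, 9.57 CPM (8.50 to 10.8) in PB and 3.93 CPM (3.34 to 4.59) in BM. It had 1 read in iPSC and 0 reads in MEF. The level was 19.7-fold (12.6 to 32.3) lower in MCC than in PB. The ratio to BM was also low, 8.08-fold (5.11 to 13.4) lower in MCC, and did not count as a call because neither library reached 5 CPM. Its neighbour Trem2, a lipid-sensing receptor of macrophages, was at 301 CPM in MCC, 5.59 CPM in PB and 10.8 CPM in BM, the reverse order. Nfya, a general transcription factor gene on the other side, was at 48.5 CPM in MCC, 67.8 CPM in PB and 136 CPM in BM.

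**Figure D2:**
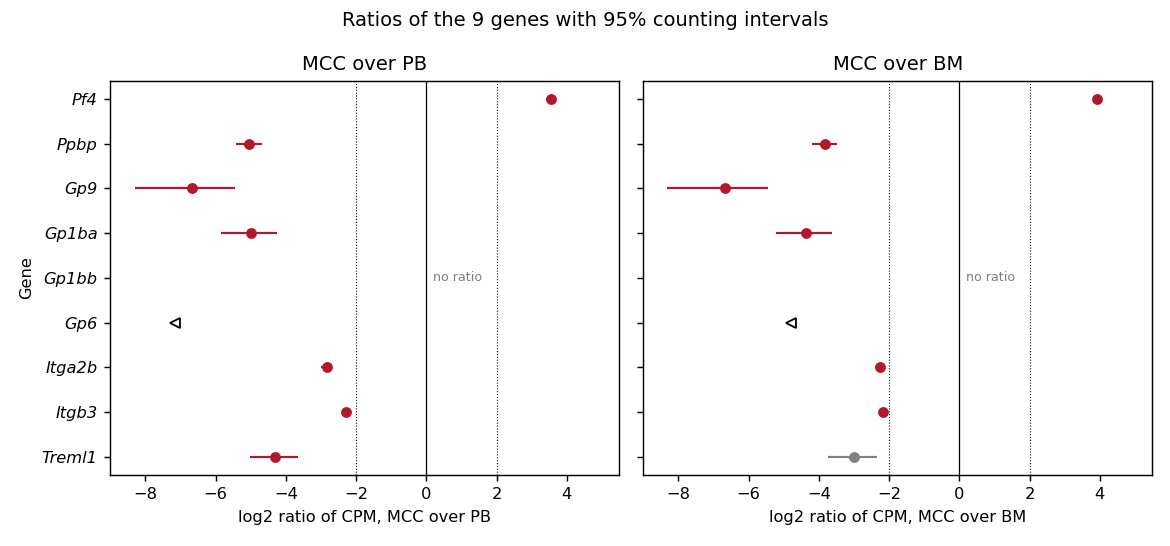
log2 ratio of CPM for each of the 9 genes, MCC over PB on the left and MCC over BM on the right, with 95% counting intervals. Open triangles are upper bounds against 3 reads, grey is under 5 CPM, dotted lines mark 4-fold and Gp1bb has no ratio. Pf4 lies at 3.54 and 3.92, and every other ratio lies below −2.

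In counts, 8 of the 9 genes reached 5 CPM in MCC or PB. Of these 1 was higher and 7 lower in MCC, beside 21.5% higher and 15.4% lower among all 12545 genes at that level. Ppbp, Gp9, Gp1ba, Gp6 and Treml1 reached it through PB alone and so could not come out higher. Against BM, 6 genes reached 5 CPM, with 1 higher and 5 lower in MCC, beside 15.6% and 13.5% of 12427 genes. There Ppbp, Gp9 and Gp1ba did so through BM alone. The 1 higher gene was Pf4, whose pattern was known when the genes were chosen. The same limit holds for the counts below wherever a gene reached 5 CPM in 1 library alone. The median log2 ratio of the 8 genes was −4.64 in MCC over PB and that of the 6 was −3.04 over BM, against 0.38 and 0.11 for all genes. Against iPSC and against MEF, 3 genes reached the level and Pf4 alone was called, as higher in MCC. Among all genes, 11.3% were higher and 9.77% lower in MCC than in iPSC, and 8.05% higher and 2.71% lower than in MEF. Between iPSC and MEF, 2 of the 9 genes reached the level and 0 were called, beside 8.83% higher and 6.37% lower in iPSC among all genes. Of all calls, 53.7% were on the higher side in MCC over iPSC and 58.1% in iPSC over MEF. With total counts alone these shares were 41.9% and 69.6%. In MCC over PB, 2699 genes were higher and 1927 lower, against 2264 and 2328 with DESeq2 size factors. In MCC over BM, 1943 were higher and 1678 lower, against 1777 and 1819 with total counts.

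Summed over the 9 genes, the libraries looked closer than they were gene by gene. The sum was 282 CPM (277 to 287) in MCC, 292 CPM (286 to 299) in PB and 207 CPM (202 to 211) in BM. Without Pf4 it was 33.7 CPM (31.9 to 35.4) in MCC, 271 CPM (265 to 277) in PB and 190.2 CPM (186 to 194) in BM. Without the integrin genes too, the remaining 6 genes summed to 2.52 CPM (2.07 to 3.04) in MCC, 94.2 CPM in PB, 47.3 CPM in BM, 0.650 CPM in iPSC and 2.61 CPM (2.15 to 3.14) in MEF. MCC and MEF did not differ in this sum beyond counting error, but the sum hid differences between its genes. The Ppbp ratio was 0.654 (0.475 to 0.897) in MCC over MEF, while Treml1 had 21 reads in MCC and 0 in MEF. The Gp1ba ratio, 1.67 (0.684 to 4.32), was within counting error.

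Pf4 made up 97.9% of the summed level per kilobase in MCC, 22.0% in PB, 26.0% in BM, 0.628% in iPSC and 0.462% in MEF. Ppbp led in PB with 35.6%, and Itgb3 led in iPSC with 63.0% and in MEF with 76.0%. In BM, Pf4 and Ppbp (23.6%) were the highest. On the exon union their order was within counting error, with a ratio per kilobase of 1.10 (0.997 to 1.22). That depends on the length used, 721 bases for Pf4. Its longest transcript has 588 bases, which would raise the ratio, while Ppbp has 1083 bases either way. Itgb3 made up 12.6% in PB and 17.7% in BM, Treml1 5.08% in PB and 3.20% in BM, and Gp6 1.25% in PB and 0.370% in BM.

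**Figure D3:**
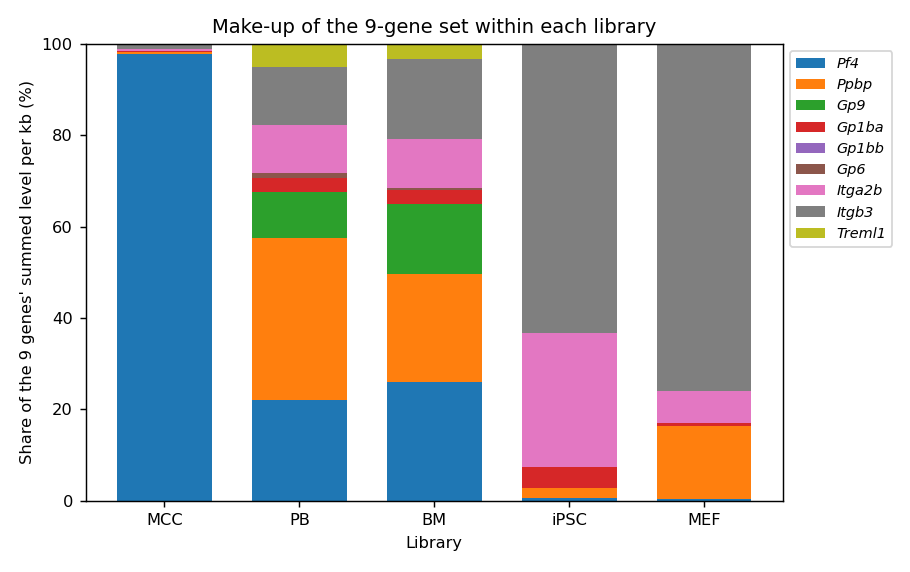
Share of each gene in the summed level per kilobase of the 9 genes, as stacked bars from 0 to 100% for each library. Pf4 fills 97.9% of the MCC bar, PB and BM hold a mixture, and Itgb3 fills most of the iPSC and MEF bars.

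Between PB and BM most ratios of the genes were within the 4-fold rule. Of 8 genes at 5 CPM or more in either, 1 was called, Gp6, which was 5.18-fold (4.02 to 6.73) higher in PB, and 0 were lower. Among all genes 6.32% were higher and 9.68% lower in PB, so few calls are not particular to these genes. The remaining ratios of PB over BM ran from 0.995 for Gp9 through 1.09 (1.04 to 1.15) for Itgb3 and 1.30 (1.17 to 1.45) for Pf4 to 2.32 (2.14 to 2.52) for Ppbp and 2.44 (2.0 to 2.98) for Treml1. The median log2 ratio was 0.60, against −0.18 for all genes.

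Other genes of the lineage were read from 5 lists of 66 genes. Of the 5 lists, that of lineage regulators, mainly transcription factors, had the median ratio farthest from 0 between PB and BM. GATA1 works with FOG1, the product of Zfpm1, to drive megakaryocyte and red cell genes, and NF-E2 is needed for platelet release. Of 13 regulators at 5 CPM or more, 7 were lower and 1 higher in PB than in BM (median log2 ratio −2.05), beside 9.68% lower and 6.32% higher among all genes (median −0.18). Gata1 was at 3.01 CPM in PB against 109.9 CPM in BM, 36.5-fold (29.6 to 45.5) lower, and Nfe2 at 41.6 against 293 CPM. Erythroid cells also use GATA1, and the erythroid factor gene Klf1 was 437-fold lower in PB than in BM while the globin genes were higher in PB. The part of red cell precursors in these ratios was not tested.

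In MCC, Gata1 had 1 read and Gfi1b, a repressor of the same lineage, 2 reads. Of the 14 regulators, 7 were lower and 1 higher in MCC than in BM (median log2 ratio −1.90), beside 13.5% lower and 15.6% higher among all genes. Nfe2 was at 0.370 CPM in MCC, 112-fold (68.9 to 197) lower than in PB. Meis1, a homeobox factor of stem cells and megakaryocytes, was the 1 higher gene, with 38.8 CPM in MCC, 4.84 CPM in BM and 22.8 CPM in MEF. Against MEF, 4 of 10 regulators were higher in MCC and 0 lower, beside 8.05% and 2.71% of all genes. These 4 were under 5 CPM in MEF and so could not have come out lower. Fli1, an ETS factor of megakaryocytes, was one of them, with 17.9 CPM for MCC and 3.75 CPM for MEF, though 4.11-fold (3.79 to 4.45) lower than in BM. Runx1, needed for blood formation, was at 43.4 CPM in MCC, 80.6 CPM in PB, 75.5 CPM in BM, 20.4 CPM in iPSC and 91.5 CPM in MEF.

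Of 12 surface receptor genes at 5 CPM or more in MCC or PB, 7 were lower and 0 higher in MCC (median log2 ratio −4.53), beside 15.4% lower and 21.5% higher among all genes. Of these 7, Cd36 alone reached 5 CPM in MCC, and the rest could not have come out higher. Against BM, 6 of 10 were lower and 2 higher in MCC (median −2.33), beside 13.5% and 15.6%. Mpig6b, an inhibitory receptor of megakaryocytes and platelets, and Cd226, which T and NK cells carry too, had 0 reads in MCC and were at 7.43 and 34.2 CPM in PB. Clec1b, the podoplanin receptor of platelets, had 2 reads in MCC and was at 13.6 CPM in PB. P2ry12, the ADP receptor blocked by clopidogrel and also a marker of microglia, was at 12.5 CPM in MCC, 11.5 CPM in PB and 2.60 CPM in BM, with 2 reads in MEF. It was 4.78-fold (3.88 to 5.95) higher in MCC than in BM. The other receptor gene called higher than in BM was Pear1, a platelet endothelial aggregation receptor, with 56.5 CPM in MCC, 27.5 CPM in PB and 12 CPM in BM, a 4.70-fold (4.26 to 5.19) ratio. Its level of 65.1 CPM in MEF was close to that of MCC.

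Of 9 granule and secreted protein genes, 6 were lower and 1 higher in MCC than in PB (median log2 ratio −5.72), beside 15.4% lower and 21.5% higher among all genes. Of these 6, Srgn and Nbeal2 alone reached 5 CPM in MCC, and the rest could not have come out higher. Vwf, the von Willebrand factor gene, was at 0.717 CPM in MCC against 40.6 CPM in PB, 56.6-fold lower, and F5, which encodes coagulation factor V, had 1 read in MCC. F13a1, the factor XIII A chain of platelets and macrophages, was the higher one, at 901 CPM in MCC, 162 CPM in PB, 408 CPM in BM and 0.254 CPM in MEF. Tubb1, the beta tubulin of the platelet marginal band, had 0 reads in MCC and was at 49.6 CPM in PB and 8.03 CPM in BM. Of 11 cytoskeleton and eicosanoid genes, 3 were lower and 2 higher in MCC than in PB, shares near the 15.4% and 21.5% of all genes. One of the lower genes was Alox12, the platelet lipoxygenase gene, at 0.162 CPM in MCC and 39.8 CPM in PB.

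Signalling genes downstream of platelet receptors are shared with other blood cells, and most were present in MCC. Of 14, 12 were at 5 CPM or more in MCC, against 3 in MEF. Of those 12, 9 were higher and 0 lower in MCC than in MEF, beside 8.05% and 2.71% of all genes. The 9 were under 5 CPM in MEF and so could not have come out lower. Against PB, 6 of 14 were lower and 0 higher in MCC (median log2 ratio −1.65), beside 15.4% and 21.5%. Against BM, 4 of 14 were lower and 0 higher (median −1.34), beside 13.5% and 15.6%. Fermt3, the integrin activator kindlin-3, was at 273 CPM in MCC, 282 CPM in PB, 477 CPM in BM and 0.486 CPM in MEF. Rasgrp2, the exchange factor that switches on Rap1 in platelets, was at 2.75 CPM in MCC, 344 CPM in PB and 245 CPM in BM.

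**Figure D4:**
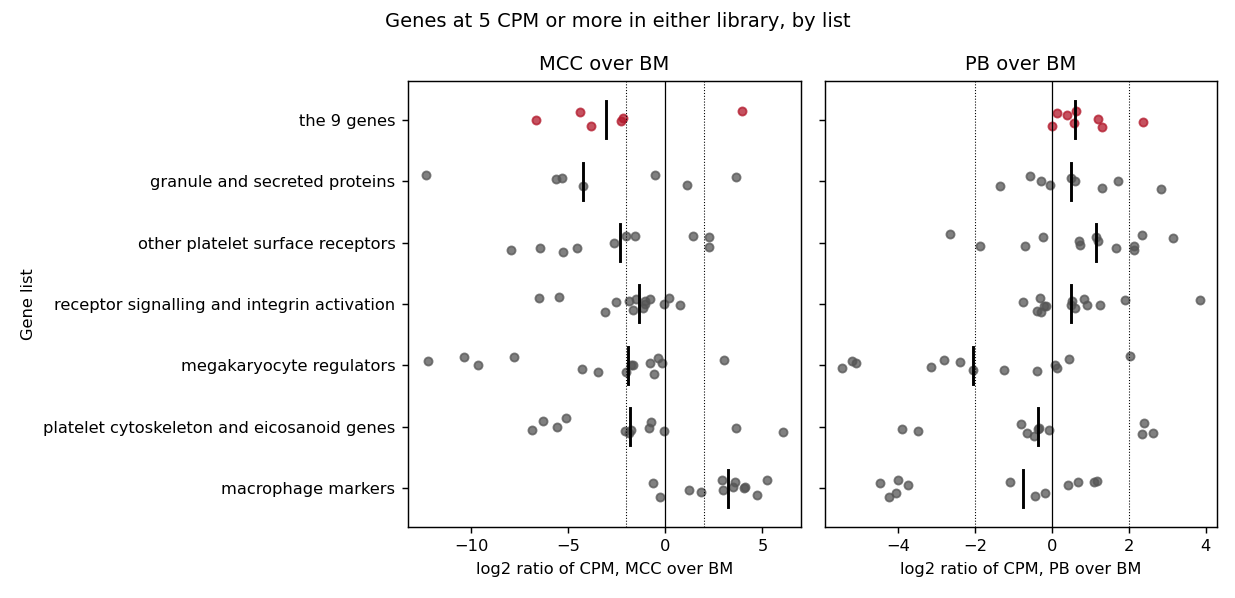
log2 ratio of CPM for the genes at 5 CPM or more in either library, 1 point a gene, by list, with MCC over BM on the left and PB over BM on the right. Bars are medians and dotted lines mark 4-fold. In MCC over BM the 5 lineage lists have medians below 0 and the macrophage markers one of 3.24, and in PB over BM the regulators have a median of −2.05.

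Markers of other blood cells were read beside these levels. The 8 neutrophil markers summed to 4.98 CPM in MCC, 5833 CPM in PB and 62819 CPM in BM, and were between 5295-fold and 20299.9-fold lower in MCC than in BM. Of the 7 mast cell and basophil markers, 0 were at 5 CPM or more in MCC and 3 had 0 reads, Kit among them. Endothelial cells also make von Willebrand factor, and 2 of their 7 markers reached 5 CPM in MCC, 1 in PB and 3 in BM. The 12 macrophage markers summed to 13741 CPM in MCC, 4314 CPM in PB, 7906 CPM in BM, 25.1 CPM in iPSC and 22.7 CPM in MEF. Pf4 was thus high in the library where that sum was highest and at a trace where it was lowest. Between PB and BM the order differed, since BM had the higher marker sum and PB the higher Pf4 level. Most of both sums was Lyz2, at 6849 CPM in BM and 3202 CPM in PB, so their order rests largely on that gene. The median marker level was 59.9 CPM in BM and 18.6 CPM in PB. The part of macrophage transcripts in the Pf4 level was not tested.

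Likeness of profile was measured as the mean absolute difference in log2(CPM + 0.1) over the 5 libraries, after each gene was centred on its own mean. Among 12784 genes with at least 5 CPM in a library, those closest to Pf4 included Fcgr1 (0.17), Ifi27l2a (0.22), Ms4a6d (0.47) and Clec10a (0.53). Fcgr1, the high-affinity IgG receptor gene, was at 203 CPM in MCC, 15.8 CPM in PB, 18.0 CPM in BM and 0 reads in iPSC and MEF. Clec10a, a galactose-binding lectin gene, was at 211 CPM in MCC, 6.19 CPM in PB and 20.6 CPM in BM. Of the 9 genes, Treml1 was the nearest to Pf4, at 2.49, and Itgb3 the farthest of those compared, at 3.61. Gp1bb was not compared.

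The closest profiles to Itga2b were those of Etohd2 (0.05), Ttc7 (0.09) and Cyb561d1 (0.12), and to Itgb3 those of Fam129a (0.20), Runx2 (0.22) and Tiam2 (0.27). Runx2, a factor of bone-forming cells, was at 16.2 CPM in MCC, 75.3 CPM in PB, 60.5 CPM in BM, 16.8 CPM in iPSC and 37.6 CPM in MEF. Between Itga2b and Itgb3 the difference was 0.87. These values rest on 5 libraries and on the added 0.1 CPM where counts are near 0.

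**Figure D5:**
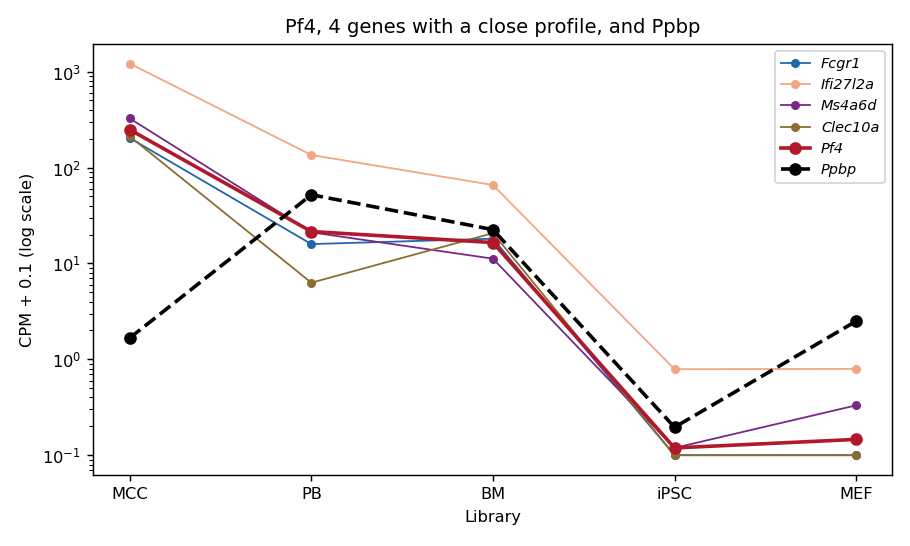
CPM + 0.1 on a log axis in the 5 libraries for Pf4, 4 of the genes with the closest profiles and Ppbp, with lines that only join the points of a gene. The profiles of Pf4 and these 4 genes are highest in MCC and near 0.1 to 1 in iPSC and MEF, while Ppbp is highest in PB at 51.9 CPM.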

How the data were processed

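RNA was extracted with Trizol and polyA RNA was taken, per the labels' protocols. The authors deposited whole-number read counts per gene symbol, not normalized, 1 column per library, made with STAR and featureCounts on mm10, per the submitters' processing notes. Neither versions nor the annotation, strand setting or filters were stated there. The table had 5 columns, each matched to a library by its code, and 0 were unused.

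CPM was computed on TMM-scaled library sizes with edgeR 4.0.16 in R 4.3.3, and all else with scipy 1.17.1, numpy 2.4.6, pandas 2.3.3 and matplotlib 3.10.9 under Python 3.11.15. Intervals are exact at 95%: Poisson for a level, conditional binomial (Clopper-Pearson) for a ratio. No molecular identifiers are stated, so reads cannot be taken as independent molecules. Exon lengths and positions came from GENCODE M21 (mm10), where 33782 symbols matched 1 gene model, and a length is the union of annotated exons. The size rule was tried on simulated counts that held counting error only, with planted changes larger than 4-fold. That trial cannot show how replicate libraries would vary.

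The members, the 14 gene lists and the comparisons were chosen with earlier results of these data known. Genes named are the 9, list genes at 5 CPM or more in a library, the closest profiles and the neighbours of Pf4, Gp1bb and Treml1; 2 genes that this rule takes are not reported here. The alternatives were DESeq2 1.42.0 size factors, total counts, a library size without abundant genes, other level minimums, a counting bound, 2-fold, the longest transcript as length and, chosen after seeing the data, TMM over the 2 libraries compared.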

Additional observations from a re-analysis of the deposited data

How the results depend on the processing

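With 1 library per group, no replicate could be left out. No paired analysis was possible because each group has 1 library. Of 96 counts of the 9 genes under the alternatives, 86 were within 1.5 times the reported ones and 10 were not. With 20 CPM as the minimum, 3 genes were lower in MCC than in PB, 3 lower in MCC than in BM and 0 higher in PB than in BM. With no minimum, 3 were higher in MCC than in iPSC, 2 higher in MCC than in MEF and 1 lower in iPSC than in MEF. At 2-fold, 2 were higher and 1 lower in MCC than in MEF, 3 higher in PB than in BM and 1 lower in iPSC than in MEF. These follow from the minimum or the fold itself. Of the 672 list counts under another scaling, 662 were within 1.5 times, and of the 672 under another minimum, fold or bound, 556.

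Across the scalings a ratio of the 9 genes moved by at most 1.32-fold (total counts), and no called ratio of the 9 genes changed direction under the alternatives run. The Itgb3 ratio, MCC over iPSC, which was not called, was 0.991 with total counts against 1.30 reported. DESeq2 size factors moved the median log2 ratio of all genes to 0.07 in MCC over PB, from the 0.38 reported, and to 0.02 in PB over BM. Total counts moved it to −0.04 in MCC over BM, −0.30 in MCC over iPSC and 0.27 in iPSC over MEF. With the longest transcript as length, 6 of 35 places in the order of the 9 genes changed by library. Depth limits Gp9, Gp1ba, Gp6 and Treml1 in MCC, iPSC and MEF, where each had fewer than 30 reads.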

Other observations

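Of 6 listed CXC chemokine and chemokine receptor genes at 5 CPM or more in MCC or PB, 1 was higher and 3 lower in MCC, beside 21.5% and 15.4% of all genes. Cxcl5, a neutrophil-attracting chemokine gene of the same family, was at 137 CPM in MCC, 0.201 CPM in PB, 0.270 CPM in BM, 0.631 CPM in iPSC and 19.4 CPM in MEF, and was 7.07-fold (6.57 to 7.61) higher in MCC than in MEF. Cxcl1 was at 38.4 CPM in MCC, 14.8 CPM in PB and 11.5 CPM in MEF and had 0 reads in BM. Cxcl2 went the other way, at 0.370 CPM in MCC against 1092 CPM in PB. Cxcr2, the receptor gene of neutrophils for these chemokines, had 2 reads in MCC and was at 236 CPM in PB and 329.9 CPM in BM. Cxcr3, which codes for a receptor of other CXC ligands, was at 2.27 CPM in MCC, 6.73 CPM in PB and 7.07 CPM in BM.

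Among relatives of Treml1, Treml2 was at 7.04 CPM in MCC, 128 CPM in PB and 195 CPM in BM, and Trem1, an activating receptor of neutrophils and monocytes, at 0.0926 CPM in MCC, 408 CPM in PB and 139.7 CPM in BM. Trem2 alone among the 5 Trem genes listed was higher in MCC than in PB and in BM. Of 9 listed integrin and Trem genes, 2 were higher and 4 lower in MCC than in PB, beside 21.5% and 15.4% of all genes. Itgb5, another partner of the alpha-V chain, was at 244 CPM in MCC, 33.2 CPM in PB, 22.7 CPM in BM, 208 CPM in iPSC and 459 CPM in MEF. Dnm3, a dynamin gene used by megakaryocytes, was at 9.79 CPM in MCC, 1.14 CPM in PB, 0.147 CPM in BM and 8.76 CPM in MEF, so its MCC level was near that of fibroblasts.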
